A study of Mus musculus with 4 samples.

Results

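Pax7 and the 4 myogenic regulatory factors Myf5, Myod1, Myog and Myf6 were followed cell by cell in regenerating mouse muscle. The 5 genes were taken by their symbols from the 25827 genes of the deposited tables, and each symbol matched 1 gene. In the tables they are Pax7 (ENSMUSG00000028736), Myf5 (ENSMUSG00000000435), Myod1 (ENSMUSG00000009471), Myog (ENSMUSG00000026459) and Myf6 (ENSMUSG00000035923). The study asked what the loss of a muscle microRNA, miR-501, does to myogenic progenitors (MPs), the muscle-resident stem cells and their progeny. Its control mice carried Pax7Cre, with label genotype WT (Pax7Cre), and its knockout mice carried Pax7CremiR-501fl/Y, a floxed miR-501 precursor on the X chromosome, and are called miR-501KO here. Both groups were 12-week-old males whose tibialis anterior muscle had been injured with cardiotoxin, a venom toxin that kills myofibres, and was taken on day 6.

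Cre is driven by Pax7 itself in both groups and is not inducible, so deletion begins wherever Pax7 is first active, and all control values come from Cre carriers. No Cre-free mice were analysed here. Each group had 2 libraries, each pooled from 3 mice, and replicate 1 of both groups came from the first run and replicate 2 from the second. Cells were sorted as α7-integrin+ and CD45-, CD31- and Sca1-. The miR-501 precursor was not analysed here, so its deletion was not checked in these counts.

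Pax7 is the transcription factor that marks muscle stem cells and maintains them. The myogenic regulatory factors are basic helix-loop-helix proteins that bind E-boxes (CANNTG) with a partner protein. Myf5 and Myod1 commit cells to the muscle lineage, Myog, which encodes myogenin, drives their differentiation, and Myf6, also called Mrf4, is most abundant in muscle fibres. In regenerating muscle a stem cell is known to lose Pax7 as it gains Myog.

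The Myog promoter is shown first because Myog is the member whose level differed most between cell classes and is itself a known target of E-box proteins. The 250 bases before its start (RefSeq table, build GRCm38.p6, plus strand, chr1:134289754-134290003) held 2 E-boxes, CACATG at 138 and CAGTTG at 12 bases before the start, given in capitals:
Myog promoter: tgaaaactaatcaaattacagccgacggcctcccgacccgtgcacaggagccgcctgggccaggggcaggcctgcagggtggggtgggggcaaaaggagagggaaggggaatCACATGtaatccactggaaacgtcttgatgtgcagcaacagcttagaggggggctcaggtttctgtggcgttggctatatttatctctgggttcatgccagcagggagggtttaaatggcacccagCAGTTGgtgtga
At least 2 E-boxes on either strand were found in 31.8% of 32851 promoters of that length, so a pair is common. The windows of Pax7 (chr4:139832969-139833218) and Myf5 (chr10:107486135-107486384), both on the minus strand, held none of these letters, and at least 1 was found in 66.2% of promoters. The RefSeq table matched 3 of the 5 genes, Pax7, Myf5 and Myog.

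The mature arms of the deleted microRNA are shown because a microRNA pairs with its targets through its seed (bases 2 to 8, in capitals). Both lie in an intron of Clcn5 on the X chromosome, on the minus strand of GRCm38.p6, at chrX:7241270-7241291 for the 3p arm and chrX:7241307-7241328 for the 5p arm.
mmu-miR-501-3p: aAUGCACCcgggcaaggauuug
mmu-miR-501-5p: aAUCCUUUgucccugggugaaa
The letters that pair with the 3p seed, GGTGCAT, were in none of the 3′ untranslated regions of the 5 genes (GENCODE vM21), against 6.15% of the 21039 genes scanned. Those that pair with the 5p seed, AAAGGAT, were found once, in Myf5 at position 923 of 1112, against 11.5% of genes. The study states that its earlier sequencing found the 5p arm not expressed in activated MPs, and it refers to the 3p arm.
Myf5 match: atataaaaaaAAAGGATtgtaaaattt
A match of letters is a description and not a site shown to be used.

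Barcodes with at least 5000 UMIs (unique molecular identifiers, each 1 captured RNA molecule) and 1000 genes were kept, which left 3439 and 1829 cells in Pax7Cre replicates 1 and 2 against 2833 and 2349 in miR-501KO replicates 1 and 2, of 16519 barcodes. Libraries held 73665012 to 117527749 UMIs, with medians of 25254 to 34579 per kept cell, and 10 barcodes were shared between libraries. miR-501KO replicate 1 stood apart. Of 19 clusters built without the 5 genes, 4 were over 90% from 1 library, and 749 of their 750 barcodes were from miR-501KO replicate 1 (26.4% of its cells). The largest of them, cluster 6 with 659 barcodes, had 7 of 12 macrophage and 8 of 16 committed markers raised, and 99.7% of its barcodes held Myog. Against the gate, 343 barcodes formed a macrophage-like cluster, and mural-like (260), fibroblast-like (231) and Schwann-like (194) clusters were found. Member values were computed with and without the 4 single-library clusters.

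All 5 genes were detected in all 4 libraries, and Myf6 was scarce. Pax7 gave 8905 and 7216 UMIs in Pax7Cre replicates 1 and 2 against 6957 and 6952 in miR-501KO replicates 1 and 2. Myog gave 98516 and 51283 against 57777 and 53422, while Myf6 gave 213 and 508 against 392 and 155. Myog RNA was concentrated in few cells. The 10% of cells with most Myog held 80.3% and 83.9% of all Myog UMIs in Pax7Cre and 67.9% and 91.4% in miR-501KO, and the highest cell of each library held 583 to 772 Myog UMIs. The same measure for Pax7 was 33.7% to 46.3%, so Pax7 UMIs were spread more evenly over cells.

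Pax7, Myf5, Myod1 and Myog divided the MP clusters in the order known for the lineage, and none of them was used to build or name the clusters. Names ending in "-like" rest on raised markers other than the 5 genes. Quiescent-like cells carried stem cell markers such as Chodl, with 4 of 12 listed markers raised in cluster 2 (1978 cells) and 9 in cluster 5 (1005 cells). Cycling-like cells (3 and 8) carried proliferation genes, with 17 and 13 of 17 raised. Committed-like cells (4, 12 and 17) carried differentiation genes, with 9, 16 and 9 of 16 raised, and cluster 17 was led by genes of mature fibres. Pax7 and Myf5 were highest in quiescent-like cells and lowest among the MP classes in committed-like cells, and Myod1 and Myog ran the other way. The clusters of each class were present in all 4 libraries. Levels are given as CPM, the UMIs of a gene per 1000000 UMIs over the summed cells of a class, and since 3′ capture differs between genes they are compared within a gene only.

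Pax7 stood at 168 and 191 CPM in the quiescent-like cells of Pax7Cre replicates 1 and 2 and at 214 and 206 in those of miR-501KO. In cycling-like cells it stood at 67.3 and 85.8 against 74.1 and 74.1, and in committed-like cells at 7.08 and 9.19 against 8.28 and 8.9. The 3 classes did not overlap over the 4 libraries, and in quiescent-like cells both miR-501KO values were the higher. With 2 libraries against 2, such a separation has an exact two-sided permutation p of 0.333, here and for the genes below. Committed-like Pax7 was as low as in cells that should lack it, since macrophage-like cells held 9.12 to 23.7 CPM and mural-like cells (vessel-wall cells) 0.515 to 17.9. Over the 11 clusters with at least 20 cells in each library, Pax7 was highest in cluster 5 (216 ± 26.1 CPM, SD, n = 4 libraries) and then cluster 2 (185 ± 18.1), and those overlapped. Cluster 2 lay above all lower clusters, and the cycling-like clusters lay above the macrophage-like one without overlap.

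Myf5 followed the same order of classes. Its level was 357 and 312 CPM in quiescent-like cells of Pax7Cre and 343 and 336 in those of miR-501KO. It was 181 and 173 against 176 and 171 in cycling-like cells and 21 and 13.8 against 15.3 and 18.5 in committed-like cells. Again the 3 classes did not overlap, and the ranges of the 2 groups overlapped in each class. Cluster 5 (403 ± 36.8 CPM, n = 4) lay above cluster 2 (306 ± 20.3) in Myf5 without overlap, whereas their Pax7 levels overlapped.

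Myod1 was lowest in quiescent-like and highest in committed-like cells. It stood at 25.6 and 33.4 CPM in quiescent-like cells of Pax7Cre and 37.2 and 31 in those of miR-501KO, at 100 and 130 against 128 and 114 in cycling-like cells, and at 263 and 222 against 277 and 379 in committed-like cells. The 3 classes did not overlap, and in committed-like cells both miR-501KO values were the higher, with replicate 2 the highest. The 2 quiescent-like clusters differed in Myod1 as well, with 62.6 ± 19.5 CPM in cluster 5 and 19.3 ± 2.47 in cluster 2 (n = 4), so that cluster 5, the higher in Myf5, was also the higher in Myod1. Cluster 12, led by the embryonic and perinatal myosins Myh3 and Myh8, held the most (407 ± 80.5), overlapping with cluster 4 (256 ± 60.3).

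Myog separated the committed-like cells most sharply. Its level there was 4245 and 3489 CPM in Pax7Cre against 3374 and 4451 in miR-501KO. The class includes the 30 barcodes of cluster 17, 18 of them in Pax7Cre replicate 2, which held little Myog. Cycling-like cells held 226 and 260 against 221 and 189, and quiescent-like cells 51.6 and 25.1 against 37.7 and 26. Committed-like cells lay far above every other named class, and the groups overlapped in committed-like and quiescent-like cells. Quiescent-like Myog was within the range of macrophage-like cells, 12.9 to 123 CPM. It was above mural-like cells (6.87 to 24.4 CPM) and Schwann-like cells (10.4 to 20.7 CPM). Of the cycling-like clusters, cluster 8 (348 ± 55.2 CPM) lay above cluster 3 (163 ± 47.5) without overlap, so the 2 cycling-like clusters differed in Myog.

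**Figure D1:**
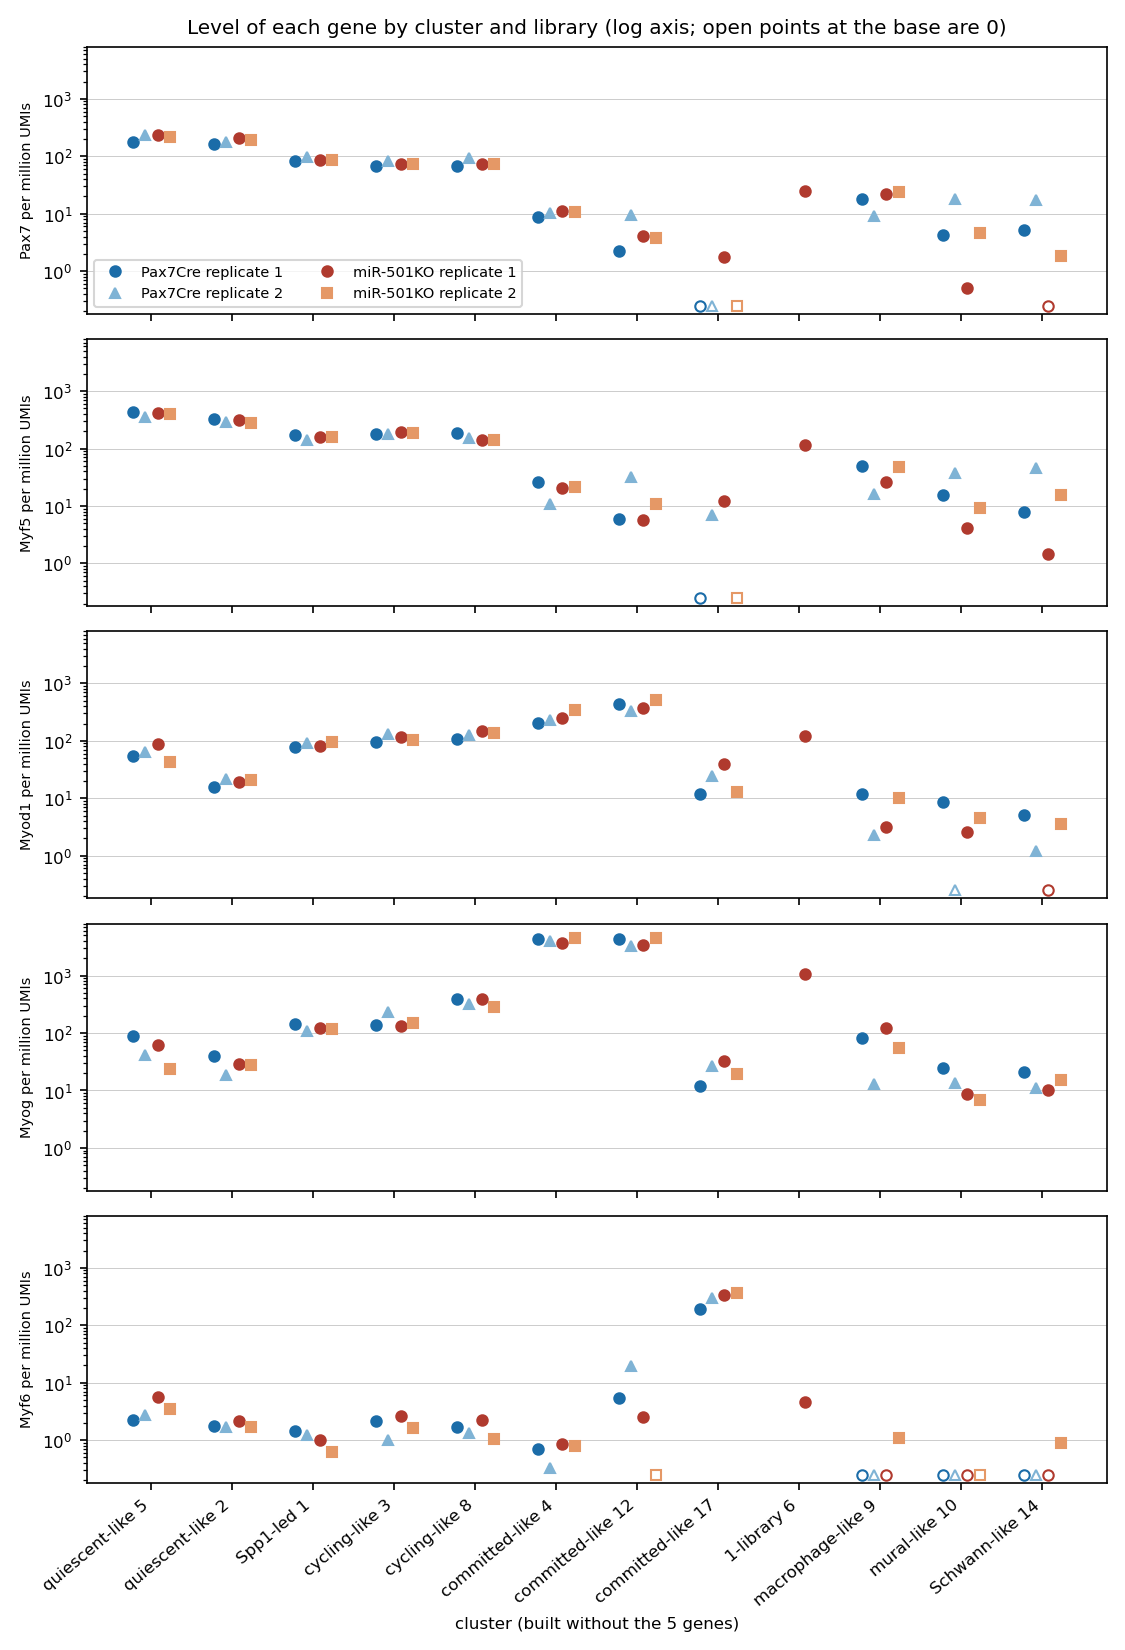
CPM of each gene (log axis) in 12 of the clusters, by library, with points for the 2 Pax7Cre and 2 miR-501KO libraries and open points at the base for 0. Pax7 and Myf5 fall and Myod1 and Myog rise from the quiescent-like to the committed-like clusters 4 and 12, while Myf6 is high in cluster 17 alone of the clusters drawn.

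The largest cluster, the unnamed cluster 1 with 2030 cells, had Spp1 as its leading gene. It lay between the quiescent-like clusters and the committed-like clusters 4 and 12 in Pax7, Myf5, Myod1 and Myog. It held 87.5 ± 5.47 CPM of Pax7, 158 ± 13.7 of Myf5, 87 ± 7.62 of Myod1 and 122 ± 15.01 of Myog (SD, n = 4).

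A finer clustering (Leiden resolution 1 in place of 0.5) placed cells with mixed levels in a cluster of 360 cells led by Sox8 and Dll1, which stayed unnamed and had Myod1 among its 10 leading genes. Its Myog was 653 and 694 CPM in Pax7Cre against 558 and 658 in miR-501KO, between the cycling-like and committed-like levels. Its Pax7 was 75 and 95.7 against 93.5 and 91.4, around the level of cycling-like cells. Dll1 encodes a Notch ligand that keeps neighbouring cells undifferentiated. This cluster was chosen after its values were seen.

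The genes drew their RNA from different classes. Quiescent-like cells gave 43.8% and 52.5% of the Pax7 UMIs in Pax7Cre and 50.1% and 49.1% in miR-501KO, and 40.4% to 51.1% of the Myf5 UMIs. Committed-like cells gave 85.2% and 84.4% of the Myog UMIs in Pax7Cre and 86.1% in miR-501KO replicate 2, but 55.7% in miR-501KO replicate 1, where the single-library clusters gave 29.9%. Myod1 came from several classes, with 29.5% to 44.7% from committed-like and 22.4% to 31.1% from cycling-like cells and 17.1% to 20.9% from the unnamed cluster 1. In miR-501KO replicate 1 the single-library clusters gave a further 21.2%.

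Myf6 sat apart from the other 4 genes. Of its 1268 UMIs in kept cells, 649 (51.2%) came from the 30 barcodes of cluster 17, which was led by Pvalb, Tcap and Tnnc2, genes of mature fibres. Cluster 17 held 2 and 18 barcodes of Pax7Cre and 5 and 5 of miR-501KO, and they gave 7.51% and 75.8% against 49.0% and 36.1% of each library's Myf6. Their Myf6 level was 192 and 303 CPM against 333 and 361, and 27 of the 30 held Myf6.

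The barcodes of cluster 17 had little Myog, 12 and 26.7 CPM in Pax7Cre against 32.9 and 19.4 in miR-501KO, and a median mitochondrial share of 0.049% of UMIs. They count into the committed-like levels of every gene, and class levels of Myod1 and Myog without them were not computed. The cell highest in Myf6 in each library was among them, with 9 and 171 Myf6 UMIs in Pax7Cre and 139 and 40 in miR-501KO, and up to 362241 UMIs in all. Without cluster 17 the Myf6 level over all cells was 1.73 and 1.74 CPM in Pax7Cre against 2.37 and 1.35 in miR-501KO, in place of 1.86 and 7.07 against 4.62 and 2.10. The libraries thus lay closer together without cluster 17, although the 5 barcodes of each miR-501KO library gave unequal Myf6, 192 and 56 UMIs. In the other committed-like clusters, 4 and 12, Myf6 was 1.98 and 3.77 CPM against 1.45 and 0.589.

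To compare cells at 1 depth, each cell was thinned at random to 5000 UMIs, and a gene counted as present with at least 1 UMI. Pax7 was present in 29.9% and 35.7% of Pax7Cre cells and in 27.5% and 36.4% of miR-501KO cells, and Myf5 in 46.1% and 43.8% against 43.5% and 46.2%. Myf6 was present in 0.96% and 1.53% against 1.24% and 0.894%. For these 3 genes the groups overlapped, with exact two-sided permutation p = 1, 1 and 0.667. With 2 libraries against 2 no exact test can give a p under 0.333, and libraries of pooled mice carry only the spread between pools. Before thinning, Pax7 was present in 57.0% to 71.4% of cells and Myf5 in 72.0% to 73.2%, so many cells scored as lacking a gene at 5000 UMIs held it at full depth. The unthinned shares were 43.2% to 53.4% for Myod1, 41.8% to 60.7% for Myog and 3.83% to 6.14% for Myf6.

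Myod1 was present in 23.0% (95% Wilson interval 21.6 to 24.4) and 22.6% (20.8 to 24.6) of Pax7Cre cells and in 27.1% (25.5 to 28.8) and 24.6% (22.9 to 26.4) of miR-501KO cells. Both miR-501KO libraries lay above both Pax7Cre libraries, by 3.08 percentage points in the mean (22.8 ± 0.258 against 25.9 ± 1.76, SD, n = 2 each, exact permutation p = 0.333). Without the single-library clusters the difference was 0.338 points and the groups overlapped. Intervals here and elsewhere cover counting error only.

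Myog was present in 32.9% and 25.8% of Pax7Cre cells and in 47.3% and 25.8% of miR-501KO cells (exact permutation p = 0.667). The difference was 14.3 points in the first run and 0.0343 in the second. Without the single-library clusters miR-501KO replicate 1 stood at 28.6%, below Pax7Cre replicate 1. The higher share of Myog cells thus rested on 1 library and on clusters almost confined to it. Within the 3 named MP classes the order turned, with 37.3% and 30.03% of Pax7Cre cells and 27.5% and 27.6% of miR-501KO cells holding Myog, a difference of -6.13 points (exact permutation p = 0.333).

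Presence by class followed the levels. At 5000 UMIs, 52.6% and 58% of quiescent-like cells held Pax7 in Pax7Cre and 61% and 60.8% in miR-501KO, against 2.67% and 4.44% and 5.88% and 2.8% of committed-like cells. The committed-like shares were at background, within the 2% to 10.5% of macrophage-like cells. Median depths were 21620 to 28166 UMIs in quiescent-like, 34760.5 to 40194.5 in committed-like and 16915 to 20812 in macrophage-like cells. Myog was in 98.1% and 92.2% of committed-like cells in Pax7Cre and 94.5% and 96.4% in miR-501KO. In quiescent-like cells it was in 12.9% and 8.49% against 6.53% and 7.92%, within the 4% to 25.3% of macrophage-like cells. The part of free RNA in the Myog of quiescent-like cells was not tested. Myod1 was in 8.3% and 11.1% of quiescent-like cells in Pax7Cre and in 11.6% and 10.2% in miR-501KO. Macrophage-like cells gave 2.75%, 1.9% and 8.86% in 3 libraries and 0 of 50 cells in Pax7Cre replicate 2, which allows a share of up to 6%.

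Co-detection showed the same pairs. Myf5 was present in 65.9% and 61.1% of cells with Pax7 in Pax7Cre and in 58.2% and 65% in miR-501KO, against 37.7% and 34.2% and 37.8% and 35.5% of cells without Pax7. Myog was present in 62.8% and 53.9% of cells with Myod1 against 24% and 17.6% without it in Pax7Cre, and in 76.2% and 52.3% against 36.5% and 17.2% in miR-501KO. Pax7 was present in 12.3% to 18.1% of cells with Myog and in 38% to 43.8% of cells without it. In every library Pax7 went with Myf5 and Myod1 with Myog, and a smaller share of cells with Myog than of cells without it held Pax7. Cells with a UMI of each of Pax7, Myf5, Myod1 and Myog made up 0.378% and 0.383% of Pax7Cre and 0.882% and 0.724% of miR-501KO cells.

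From cells without Myog to cells with most of it, fewer held Pax7 and Myf5 and more held Myod1 in each library. From cells with 0 to cells with 10 to 19 Myog UMIs, the share with Pax7 went from 38% to 2.11% and from 43.8% to 3.75% in Pax7Cre, and from 40.6% to 10.8% and from 42.7% to 4.26% in miR-501KO. Without the single-library clusters the 10.8% of miR-501KO replicate 1 was 6.84%. Of cells with 20 or more Myog UMIs, 0.722% and 2.15% held Pax7 in replicate 1 of the groups, and none of 125 and 138 did in replicate 2, which allows up to 2.4% and 2.17%. Most of the loss of Pax7 fell below 5 Myog UMIs in Pax7Cre, where the share at 2 to 4 UMIs was 13.8% and 8.45%. It was 14% and 29.5% in miR-501KO, and 20.6% in replicate 1 without the single-library clusters.

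The share with Myod1 went from 12.7% and 14.1% at 0 Myog UMIs to 58.5% and 60% at 20 or more in Pax7Cre, and from 12.2% and 15.8% to 58.1% and 70.3% in miR-501KO. Of cells with 5 to 9 Myog UMIs, 12.9% and 14.3% held Myf5 in Pax7Cre and 36.8% and 24.7% in miR-501KO, against 9.68% and 7.14% and 12.6% and 10.6% that held Pax7. The Myf5 share was above the Pax7 share there in every library, as it also was at 0 Myog UMIs. At 0 Myog UMIs 50.9% to 57.0% of cells held Myf5 and 38% to 43.8% held Pax7. Since capture differs between genes, this order does not show which gene is lost later. Without the single-library clusters the Myf5 share of miR-501KO replicate 1 at 5 to 9 Myog UMIs was 27.1%.

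**Figure D2:**
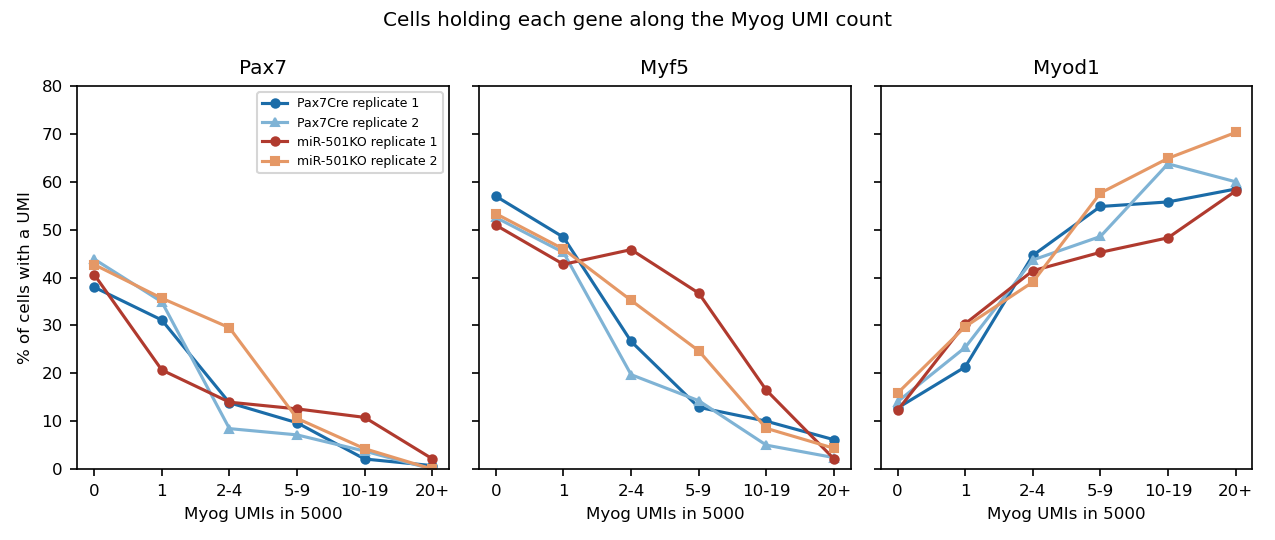
Share of cells with at least 1 UMI of Pax7, Myf5 or Myod1 (y axis, %) by the number of Myog UMIs in the cell (x axis), every cell thinned to 5000 UMIs, 1 line per library. Pax7 and Myf5 fall and Myod1 rises from cells without Myog to cells with 20 or more Myog UMIs in all 4 libraries.

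Cells were then sorted by Pax7 and Myog alone. Cells with Pax7 only made up 25.5% and 32.5% of Pax7Cre and 21.4% and 31.7% of miR-501KO cells, and cells with Myog only 28.5% and 22.6% against 41.2% and 21.2%. Cells with neither were 41.6% and 41.7% against 31.3% and 42.5%. The groups overlapped in the first state (exact permutation p = 0.667) and in the other two (p = 1 each). The high Myog-only share was again that of miR-501KO replicate 1, and within the 3 named MP classes the Myog-only difference turned from 5.59 to -6.02 points.

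Cells with both Pax7 and Myog made up 4.45% (95% Wilson interval 3.81 to 5.19) and 3.17% (2.46 to 4.08) of Pax7Cre cells and 6.11% (5.28 to 7.05) and 4.68% (3.90 to 5.61) of miR-501KO cells. Both miR-501KO libraries were the higher, with means of 3.81 ± 0.904% and 5.39 ± 1.01% (SD, n = 2 each, exact permutation p = 0.333, the smallest possible). Without the single-library clusters miR-501KO replicate 1 had 4.03%, and the groups overlapped. With at least 2 UMIs asked of each gene the share fell to 0.164% to 0.459%, and without thinning it was 33.6% and 29.9% against 28.3% and 22.5%, the opposite order. Cells with both genes held 0.138 to 0.491 macrophage-marker UMIs per cell (12 markers summed) in 3 libraries and 6.08 in miR-501KO replicate 1. Of them, 3.27% to 10.3% had a doublet score in the highest 5% of their library. The part of doublets and of free RNA in this state was not tested.

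**Figure D3:**
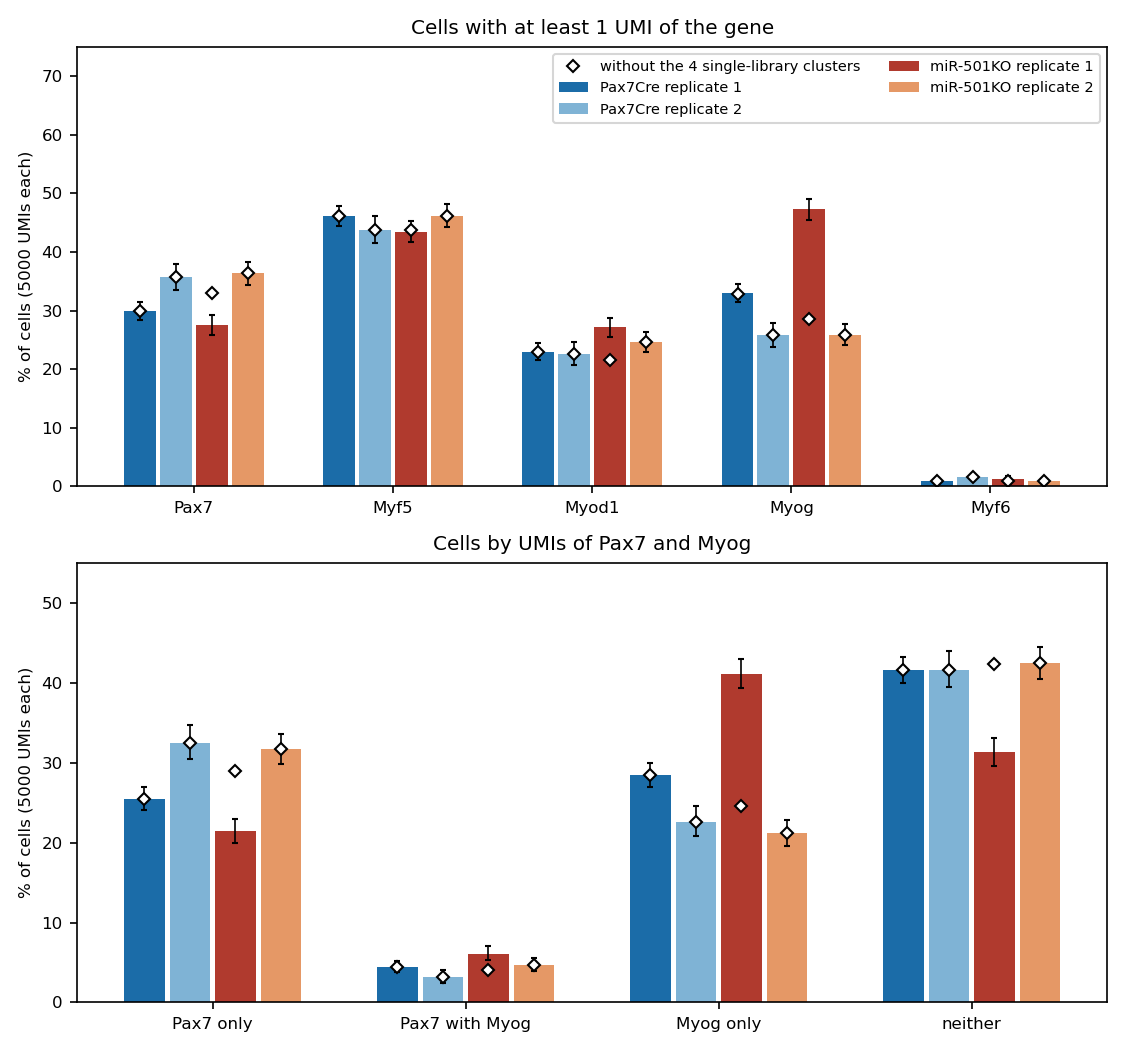
Share of cells (y axis, %, cells thinned to 5000 UMIs) with at least 1 UMI of each gene, above, and by presence of Pax7 and Myog, below, as bars for the 4 libraries with 95% Wilson intervals and diamonds for the value without the 4 single-library clusters. The bars of miR-501KO replicate 1 stand at 47.3% for Myog and 41.2% for Myog only, and both of these diamonds lie among the other libraries.

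The other 3 genes were compared between these states, since they played no part in setting them. Summed UMIs of each state in each library were tested in edgeR with the library as a block over 10783 genes, and Myf6 was too scarce to be tested. Myf5 stood at 341 and 313 CPM in Pax7-only cells of Pax7Cre and 331 and 329 in those of miR-501KO. In Myog-only cells it stood at 71.2 and 51.2 against 102 and 68.8. The states did not overlap, and Pax7-only cells held 4.79 and 6.11 times as much Myf5 in Pax7Cre and 3.26 and 4.78 times as much in miR-501KO. Myf5 was lower in Myog-only cells (log2 fold change -2.01, SE 0.21, edgeR adjusted p = 2.66e-07). Of all genes tested, 34.2% were called in this comparison, 17.4% higher and 16.7% lower in Myog-only cells.

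Myod1 moved the other way. It stood at 31.7 and 32.3 CPM in Pax7-only cells of Pax7Cre and at 35.9 and 41.1 in those of miR-501KO. In Myog-only cells it stood at 205 and 229 against 153 and 251, that is 6.47 and 7.11 times as high in Pax7Cre and 4.25 and 6.10 times as high in miR-501KO. Here too the states did not overlap, and Myod1 was higher in Myog-only cells (log2 fold change 2.71, SE 0.17, edgeR adjusted p = 4.24e-10). The smallest contrast of both genes was that of miR-501KO replicate 1, whose Myog-only cells lay 18.2% in committed-like clusters, against 47.1% to 58.0% in the other libraries, and held 9.87 macrophage-marker UMIs per cell against 2.07 to 6.40. Without the single-library clusters its Myog-only cells held 73.3 CPM of Myf5 and 209 of Myod1, and the log2 fold changes over all libraries were -2.24 and 2.74.

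Cells with both Pax7 and Myog lay between. Their Myod1 was 78.4 and 110 CPM in Pax7Cre against 132 and 125 in miR-501KO, above all Pax7-only and below all Myog-only values. It was higher than in Pax7-only cells (log2 fold change 1.73, SE 0.19, edgeR adjusted p = 2.14e-05, with 1.21% of genes called, 1.02% higher) and lower than in Myog-only cells (-0.99, SE 0.17, adjusted p = 0.00120, with 7.23% of genes called, 3.45% higher and 3.78% lower). Their Myf5 was 225 and 141 CPM against 110 and 249, the widest spread of the 3 states, with the lowest value in miR-501KO replicate 1.

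Myf5 in these cells was higher than in Myog-only cells (log2 fold change 1.16, SE 0.22, edgeR adjusted p = 0.00204), a call lost without miR-501KO replicate 2 (0.94, adjusted p = 0.0588). Against Pax7-only cells it did not pass (-0.85, SE 0.21, adjusted p = 0.0559). That comparison passed without miR-501KO replicate 1 (-0.68, adjusted p = 2.61e-04) and without the single-library clusters (-0.80, adjusted p = 7.63e-05).

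**Figure D4:**
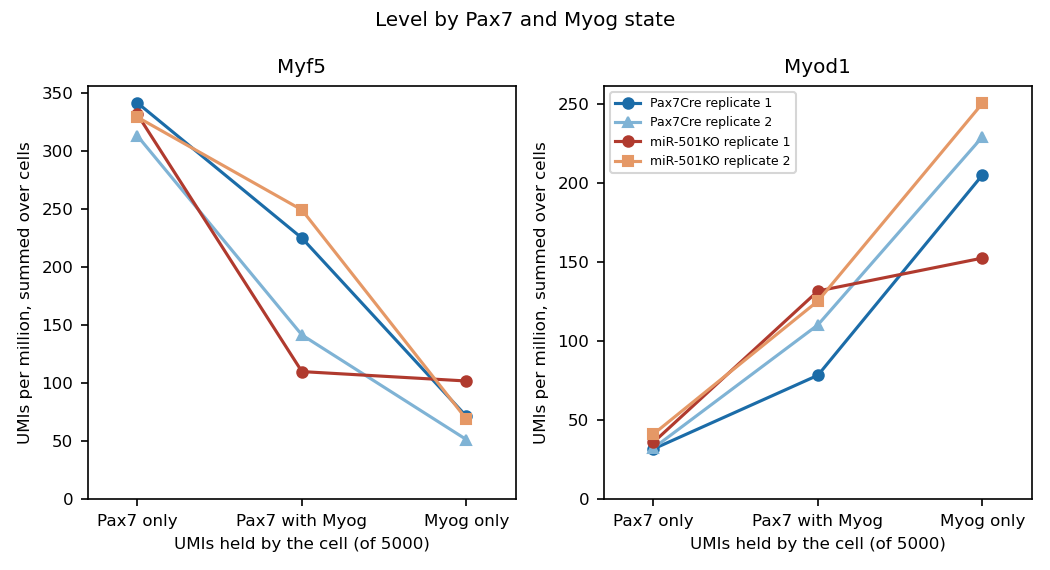
CPM of Myf5 (left) and Myod1 (right) summed over cells with Pax7 only, both Pax7 and Myog, or Myog only, thinned to 5000 UMIs, 1 line per library. Myf5 falls from 313 to 341 in Pax7-only cells to 51.2 to 102 in Myog-only cells, and Myod1 rises from 31.7 to 41.1 to 153 to 251.

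Genes around the 5 members in the pathway moved with these states. The lists were differentiation targets, stem cell genes, inhibitors of the regulatory factors, their partner and lineage regulators, and cell cycle genes. From Pax7-only to Myog-only cells 22 of 23 differentiation targets rose and 1 fell (edgeR, median log2 fold change 2.81 against -0.02 over all genes). Of all genes tested, 17.4% rose and 16.7% fell. The largest were Mymk (6.84) and Mymx (5.88), the 2 proteins of myoblast fusion, the embryonic myosin Myh3 (6.26) and the cardiac actin Actc1 (5.98). The gene that fell, Cdh15 (-0.45), encodes M-cadherin, an adhesion molecule already present on stem cells, and was named after its value was seen. Of 13 stem cell genes tested, of 15 listed, 10 fell and none rose (median -0.93), among them Chodl (-3.26), Notch3 (-2.04), Tgfbr3 (-1.96) and Vcam1 (-1.70).

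Of 14 inhibitors tested, of 16 listed, 7 fell and 1 rose (median -0.35). The helix-loop-helix repressor Msc fell by 2.0 on the log2 scale, and the Notch effectors Heyl and Hey1 fell by 1.67 and 1.52. Mdfi, which encodes a protein that holds myogenic factors inactive, rose by 1.46. Lineage regulators were divided, with 7 higher and 5 lower of 17 tested (median 0.05). Mef2c (3.33), Mef2a (1.44) and Mef2d (1.27) rose and the acetyltransferase gene Kat2b fell by 1.14. Of the cell cycle genes 4 of 17 were called in each direction, against 17.4% higher and 16.7% lower of all genes tested. The largest were Hells (-0.70) and Cenpa (0.69). Outside the lists, Mybph (6.08) was among the 5 largest increases, and Itih5 (-2.72), Dcx (-2.33), Nrep (-2.25) and Dtx4 (-2.14) were among the 5 largest falls.

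Cells with both genes held more RNA of differentiation genes than Pax7-only cells did, and few genes of the other lists were called. Against Pax7-only cells, 17 of 23 targets were higher (edgeR, median 1.43), including Myh8 (4.48), Mymk (4.35), Myh3 (4.20) and Mymx (3.85). The libraries differed, with Mymk at 22.9 to 174 CPM and Mymx at 64.6 to 223 in cells with both genes. These cells held 48.6 committed-marker UMIs each in miR-501KO replicate 1, or 41.0 without the single-library clusters. The other libraries held 19.7 to 22.8. Of the stem cell genes only Chodl (-0.92) was called against Pax7-only cells, and no inhibitor, lineage regulator or cell cycle gene was. In this comparison 131 genes were called, and leaving out Pax7Cre replicate 2, miR-501KO replicate 1 or miR-501KO replicate 2 gave 62, 285 and 86. Against Myog-only cells, 18 of the 23 targets were lower (median -1.53) and 7 stem cell genes higher, led by Chodl (2.34) and Notch3 (1.52). Msc (1.62) and Heyl (1.22) were among 3 inhibitors that were higher, and Mef2c (-2.13) among 4 lineage regulators that were lower. That comparison called 780 genes, and 258, 378, 2208 and 324 without Pax7Cre replicate 1, Pax7Cre replicate 2, miR-501KO replicate 1 and miR-501KO replicate 2.

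Over the 11 clusters, genes were ranked by how closely their level followed each member (Pearson's r of log2(CPM + 1), library averages, among 9197 genes). These are descriptions over 11 points that share libraries, and the members' clusters span most of the range. Msc was the nearest non-member to both Pax7 (r = 0.991) and Myf5 (r = 0.985), and Dcx was among the nearest 3 of both (0.987 and 0.971). Pax7 and Myf5 themselves gave r = 0.991. Nearest to Myog were Mymx (0.99), Dok7 (0.976) and Mymk (0.974), and nearest to Myod1 were Ptgis (0.971), Pmpca (0.97) and Rbm24 (0.968). Myod1 gave 0.88 with Myog and 0.31 with Pax7. For Myf6 the nearest were Tceal3 (0.902), Mybpc1 (0.9) and Coro6 (0.897). The 11 clusters leave out cluster 17, which gave 51.2% of the Myf6 UMIs. Among them the highest Myf6 mean was 6.92 ± 8.79 CPM (cluster 12), so the Myf6 values rest on levels near 0.

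No member passed the test between miR-501KO and Pax7Cre in the sums over all cells or within a class. In sums over all cells, where fewer cells of a class and less RNA per cell cannot be told apart, edgeR called 0 of 15725 genes, which is 0%, with 440 at an unadjusted p under 0.05, and DESeq2 called 13. The levels over all cells were 78 and 100 CPM against 82 and 94.3 for Pax7, 177 and 169 against 163 and 174 for Myf5, and 102 and 105 against 106 and 119 for Myod1. Myog stood at 863 and 714 against 681 and 725. Myod1 was higher in both miR-501KO libraries than in both Pax7Cre libraries, and the other 3 overlapped. With 2 libraries against 2, such a separation has an exact two-sided permutation p of 0.333, here and within classes. The share of all genes tested that separated in this way was not computed. The log2 fold changes, miR-501KO over Pax7Cre, were -0.03 (SE 0.13) for Pax7, -0.05 (SE 0.09) for Myf5, 0.10 (SE 0.09) for Myod1, -0.19 (SE 0.14) for Myog and -0.40 (SE 0.63) for Myf6.

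Within classes the members also did not pass. In quiescent-like cells edgeR called 15 of 13011 genes (0.115%, all higher in miR-501KO) and no member, and with the run as a block 80 genes and no member. Pax7 there was higher in both miR-501KO libraries than in both Pax7Cre libraries, with a log2 fold change of 0.16 (SE 0.14). That separation too has an exact two-sided permutation p of 0.333. The called genes included 4 of the 23 differentiation targets, Ckm (1.20), Mylpf (0.92), Myl1 (0.87) and Acta1 (0.81), which encode a creatine kinase, 2 myosin light chains and skeletal actin. Ckm and Mylpf were also among the leading genes of cluster 6, found in miR-501KO replicate 1 alone. The part of free RNA in the levels of these targets was not tested. Myog in quiescent-like cells was -0.35 (SE 0.25) and did not pass in this fit. It passed in the same direction under 1 of the alternative settings. Without miR-501KO replicate 1 its value was -0.58, at levels within the range of macrophage-like cells. The count of called genes was 76, 167 and 285 without Pax7Cre replicate 2, miR-501KO replicate 1 and miR-501KO replicate 2.

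In cycling-like cells edgeR called 0 of 12871 genes (0%), with 355 at an unadjusted p under 0.05, DESeq2 called 2, and the fit with the run as a block called 38 genes and no member. Myog there was -0.27 (SE 0.13). It was 226 and 260 CPM in Pax7Cre against 221 and 189 in miR-501KO, so both miR-501KO libraries were the lower. The other 4 members lay between -0.06 and 0.23.

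In committed-like cells edgeR called 0 of 12061 genes (0%), with 332 at an unadjusted p under 0.05, and DESeq2 called 3. Myod1 was 0.41 (SE 0.20, both miR-501KO libraries the higher), Myog -0.01 (SE 0.22), Pax7 0.06 (SE 0.21) and Myf5 -0.08 (SE 0.23). Myf6 was -0.43 (SE 0.91) and passed in opposite directions when a control was left out, at -1.35 without Pax7Cre replicate 1 (edgeR adjusted p = 1.01e-06) and 2.22 without Pax7Cre replicate 2 (adjusted p = 8.66e-10). Those libraries held 2 and 18 barcodes of cluster 17.

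**Figure D5:**
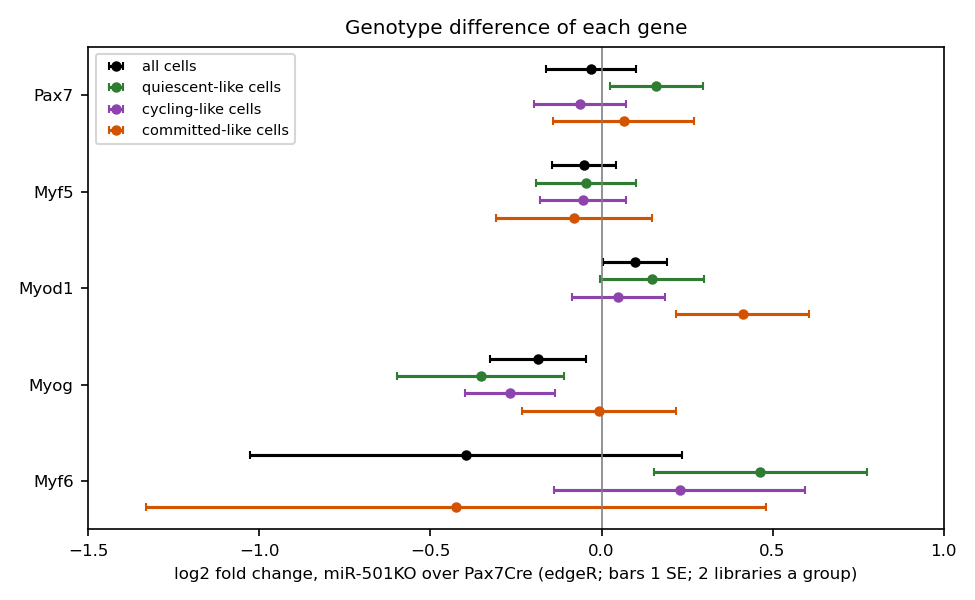
Log2 fold change of each gene in miR-501KO over Pax7Cre (x axis, edgeR, bars 1 SE, 2 libraries a group) over all cells and within each of the 3 MP classes. The bars of Pax7 and Myf5 lie within 0.5 of 0, that of Myod1 in committed-like cells is centred at 0.41, and those of Myf6 are the widest.

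The step from Pax7-only to Myog-only cells was also compared between genotypes. Its edgeR test called 0 of 11494 genes (0%), with 597 at an unadjusted p under 0.05, and DESeq2 called 0. The fall of Myf5 was shallower in miR-501KO by 0.62 (SE 0.34, adjusted p = 0.789) and the rise of Myod1 smaller by a log2 difference of -0.25 (SE 0.29, adjusted p = 0.834). Both signs turned when only the clusters of the 3 named MP classes were used, to -0.59 and 0.12. Without miR-501KO replicate 2, which leaves miR-501KO replicate 1 as the only knockout library, the Myf5 difference was 1.01 (adjusted p = 0.00128) and 2311 genes were called. Without Pax7Cre replicate 1, Pax7Cre replicate 2 and miR-501KO replicate 1, 2, 4 and 19 were called.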

How the data were processed

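The authors deposited raw UMI counts per gene and barcode of 4 droplet libraries made with the 10x Genomics 3′ chemistry, without normalization. Per the file headers they came from Cell Ranger 6.0.2, whereas the study names another version, and the labels name Cell Ranger, Seurat and build GRCm39. A label calls the assay snRNAseq, while the protocol describes sorted cells. The 5 genes and the lists were chosen with earlier results of these data known.

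The minimum per kept barcode was 5000 UMIs and 1000 genes. Total UMIs per library were 117527749, 73665012, 88193370 and 77373018 in the order Pax7Cre 1 and 2 and miR-501KO 1 and 2. Shares were taken after each cell was thinned to 5000 UMIs. Cells were clustered in scanpy 1.11.5 (2000 variable genes, 30 components, 15 neighbours, leidenalg 0.10.2 at resolution 0.5), leaving out the 5 genes. A cluster could be named where at least 3 markers of a class were raised. Raised meant a mean at least 1.5 times that of all other cells and detection in at least 10% of the cluster's cells. A cluster stayed unnamed where a second class came close in its share of raised markers. It also stayed unnamed where another class had more markers among the leading genes, or where a shallow cluster had no marker of its class among them. Per the labels doublets were gated out in the sort. Scrublet called only 20 cells (0.191%), which is too few to be used, so an alternative removed the highest 5% of scores per library.

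UMIs were summed per library, class or state and tested in edgeR 4.0.16 (R 4.3.3, limma 3.58.1, TMM, filterByExpr, quasi-likelihood test) with Benjamini-Hochberg adjustment over all genes tested and a threshold of 0.05, and DESeq2 1.42.0 was an alternative. The fits were tested on simulated data. Shares were compared by exact two-sided permutation tests. Named were the 5 genes, at most 4 genes per list and comparison with the largest changes, the leading genes of each state comparison and the 3 nearest genes of each member. Sequences came from RefSeq tables and GENCODE vM21 on GRCm38.

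The labels tie replicate number to run, so the numbers pair the libraries. Across genes the deviations of same-numbered libraries correlated by 0.226 over all cells, and by 0.0146, -0.0055 and -0.174 within the quiescent-like, the cycling-like and the committed-like class. The 2 libraries of each group were not copies of each other, since the chi-square of their counts was 15.3 to 70.3 per degree of freedom. Pairs across groups were not compared in this way. Figures were drawn in matplotlib 3.10.9.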

Additional observations from a re-analysis of the deposited data

How the results depend on the processing

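Over 220 values of the 5 genes between genotypes, 192 kept their direction and their side of the threshold, 26 turned direction and 2 newly passed. The 2 were Myog in quiescent-like cells and Myf6 in committed-like cells. Those past an adjusted p of 0.05 numbered 3. Of 84 values of Myf5 and Myod1 between states, 77 kept both, 6 newly passed and 1 no longer did. With the run as a replicate block, quiescent-like calls rose from 15 to 80 and cycling-like calls from 0 to 38, Myf6 in committed-like cells turned to 0.11, and no member's call changed. Without the library block the state comparisons changed no call of Myf5 or Myod1. The cause of the changes below was not tested.

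Pax7 over all cells turned to 0.025 without single-library clusters. At resolution 1 Myod1 in quiescent-like cells turned to -0.10, Myf6 in cycling-like cells to -0.031 and Pax7 in committed-like cells to -0.25. Genotype calls numbered 13 (all cells), 2 (cycling-like) and 3 (committed-like) with DESeq2. Without a filter on low counts they numbered 122 (quiescent-like), 51 (cycling-like) and 12 (committed-like), and in cycling-like cells 2 with RLE factors, 2 with at most 10% mitochondrial UMIs and 1 at resolution 1.

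Cells with Pax7 and Myog differed between genotypes by -6.36 points unthinned, 0.129 at 2 UMIs, 0.546 without single-library clusters and -0.110 in MP classes only. Myod1 shares differed by 0.315, 0.338 and 0.626 under the last 3, and in MP classes only Pax7, Myf5, Pax7-only, Myog and Myog-only shares differed by 5.84, 1.88, 5.95, -6.13 and -6.02, where all cells gave -0.868, -0.114, -2.45, 7.18 and 5.59. Without single-library clusters Pax7, Pax7-only, Myog and Myog-only shares turned to 1.87, 1.32, -2.12 and -2.67. Myf5 in cells with both genes passed against Pax7-only cells with DESeq2 (-0.84), no filter (-0.93), 2 UMIs (-1.45), without single-library clusters (-0.80) and in MP classes (-0.82). Calls there were 325 unfiltered, 1663 unthinned, 199 with another seed, 78 at 2 UMIs, 284 without single-library clusters and 219 in MP classes. Against Myog-only cells they were 7087 unthinned, 252 at 2 UMIs, 2032 without single-library clusters and 2036 in MP classes, and 8716 unthinned for Myog-only against Pax7-only cells. The genotype difference of that step gave 17 calls unfiltered, 2 at 2 UMIs, 10 without single-library clusters and 16 in MP classes, where Myf5 and Myod1 turned to -0.59 and 0.12.

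Leaving out 1 library in turn, which leaves a lone library assumed to vary like the rest, gave 0 to 3 calls over all cells, 20 to 285 in quiescent-like, 1 to 41 in cycling-like and 3 to 106 in committed-like cells, and 2 to 2311 for the genotype difference of the step. State calls ranged from 2544 to 4480, 62 to 285 and 258 to 2208. Over all cells Pax7 ranged from -0.18 to 0.13, Myf5 from -0.12 to 0.00459 and Myf6 from -1.08 to 0.80. In quiescent-like cells Myf5 ranged from -0.16 to 0.086, Myod1 from -0.010 to 0.32 and Myog from -0.79 to 0.30. In cycling-like cells Pax7 ranged from -0.20 to 0.082, Myf5 from -0.12 to 0.00907, Myod1 from -0.11 to 0.21 and Myf6 from -0.15 to 0.81. In committed-like cells Pax7 ranged from -0.11 to 0.22, Myf5 from -0.37 to 0.29, Myog from -0.26 to 0.20 and Myf6 from -1.57 to 2.22. Myf5 in cells with both genes ranged from 0.94 to 1.59 against Myog-only and from -1.02 to -0.68 against Pax7-only cells, and its genotype difference of the step from 0.14 to 1.01. At 5000 UMIs per cell, the part of free RNA in single-gene shares near those of macrophage-like cells was not tested.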

Other observations

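Barcodes under the minimum of 5000 UMIs and 1000 genes, which entered no comparison, also held the 5 genes. There were 2070 and 897 of them in Pax7Cre replicates 1 and 2 against 1729 and 1373 in miR-501KO replicates 1 and 2. Myog stood there at 507 and 86.7 CPM in Pax7Cre against 423 and 143 in miR-501KO, higher in the first run than in the second in both groups. Pax7 stood at 50.05 and 31.8 against 39.3 and 73.0 CPM, and Myf5 at 131 and 45.0 against 136 and 71.1. For each of these genes the level was below that of the kept cells of the same library. Myf6 went the other way, at 7.24 and 14.8 against 7.55 and 7.96 CPM, above the kept cells in all 4 libraries. These Myf6 levels rest on 24 and 27 UMIs in Pax7Cre and 25 and 29 in miR-501KO.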
